A study of Mus musculus with 112 samples.

Results

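The fast-fibre sarcomere and calcium genes are a list of 10 genes given by symbol: Myl1, Mylpf, Tnnt3, Tnni2, Tnnc2, Actn3, Mybpc2, Atp2a1, Casq1 and Pvalb. All 10 were present among the 32544 gene symbols of the count tables, and all 10 passed the filter on low counts in every comparison. They were measured in the gastrocnemius, a calf muscle, of 28 female and 28 male Diversity Outbred mice, 56 in all, at the age of 16 weeks. Diversity Outbred mice are an outbred stock, so each animal has its own genotype. Each mouse had worn a cast on a single hindlimb for 3 weeks, and total RNA of both limbs was sequenced after ribosomal RNA depletion, which gives 112 libraries in 4 groups of 28. The cast was always on the right and the left limb served as control, so an effect of side and an effect of the cast cannot be told apart. The control limb also belonged to a mouse that carried a cast.

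Skeletal muscle fibres are fast or slow, and each kind builds its sarcomere and its calcium stores from its own protein isoforms. Fast fibres contract and relax quickly, which takes fast myosin light chains and troponins, a fast calcium pump in the sarcoplasmic reticulum and, in rodents, the calcium buffer parvalbumin. The mouse gastrocnemius is mostly fast, with slow fibres gathered in its deeper part. Unloading of a muscle is known to shift slow fibres towards fast isoforms.

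The 10 genes took a median of 10.6% of all counts in a library. The total count per library ran from 1716485 to 9995936, with a median of 4395118. Levels are given as CPM, the counts scaled to a common library size after TMM normalization, which are not corrected for gene length, so levels of different genes are not compared. The measure of the cast is the fitted log2 fold change of the immobilized over the control limb within mouse, given ± SE, from edgeR's quasi-likelihood test, with p-values adjusted by the Benjamini-Hochberg method over all genes tested and a threshold of 0.05.

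In 10 of the 112 libraries Acta1, the skeletal muscle actin, was below 50% of its median over all libraries, which was 31492 CPM. These libraries came from 10 mice, 7 females and 3 males. The low limb was the immobilized one in females 2, 22, 41 and 42 and in male 35, and the control one in females 26, 44 and 48 and in males 52 and 55. The library just under the threshold was the immobilized limb of female 41, at 13320 CPM or 42.3% of the median. The one just above it was the immobilized limb of female 3, at 19988 CPM or 63.5%. Acta1 is itself a muscle fibre gene, so leaving these mice out is not independent of the 10 genes. The cast effect of each of the 10 genes is therefore given for all 28 mice of a sex and for the 21 females and 25 males that remain, while levels by limb are given for the remaining mice.

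The labelled pairing is in doubt for males 15 and 16. Over all genes tested, deviations from the group mean in the control limb of male 15 correlated at 0.0562 with its own immobilized limb and at 0.555 with that of male 16. The control limb of male 16 stood at 0.193 with its own and at 0.506 with that of male 15. Both were kept as labelled, and without them the median log2 fold change of the 10 genes in males was 0.26, beside 0.25 with them.

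All 10 genes were below the partner limb in all 10 low Acta1 limbs, which is 100 of 100 values. Their median level was 16.9% of the partner limb in female 2, 30.4% in female 22, 14.8% in female 26, 35.7% in female 41, 15.9% in female 42, 29.1% in female 44, 15.1% in female 48, 8.08% in male 35 and 28.4% in male 55. The deficit was shared by all 10 genes but differed in depth between mice. In female 42, for example, Mybpc2 was at 332 CPM against 5426 in the partner limb, while Pvalb was at 2530 against 5269. These limbs were chosen by Acta1, whose change over 56 mice correlated at 0.98 with the mean standardized change of the 10 genes. Low values were thus largely set by the choice, and the 100 values are not independent. Slow counterparts were mostly low there too, such as Myl3 at 1.14% of the partner limb in female 2, though Tnnc1 was at 113% in male 35.

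The control limb of male 52 stood far below every other library. Its library held 5278279 counts, and Acta1 was at 3.45 CPM. Tnni2, Pvalb and Mybpc2 had 0 counts there. A count of 0 allows up to 3 counts, or 0.37 CPM in this library (counting error only), so these 3 genes were at least 18100-fold, 19500-fold and 13800-fold lower than in the partner limb. Actn3 had 1 count, Tnnc2 3, Casq1 4, Atp2a1 5, Tnnt3 6 and Mylpf 9, while Myl1 had 295 counts, or 36.3 CPM against 9565 in the partner limb. The labelled tissue of this library is gastrocnemius muscle, and the muscle genes that define it were close to absent.

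**Figure D1:**
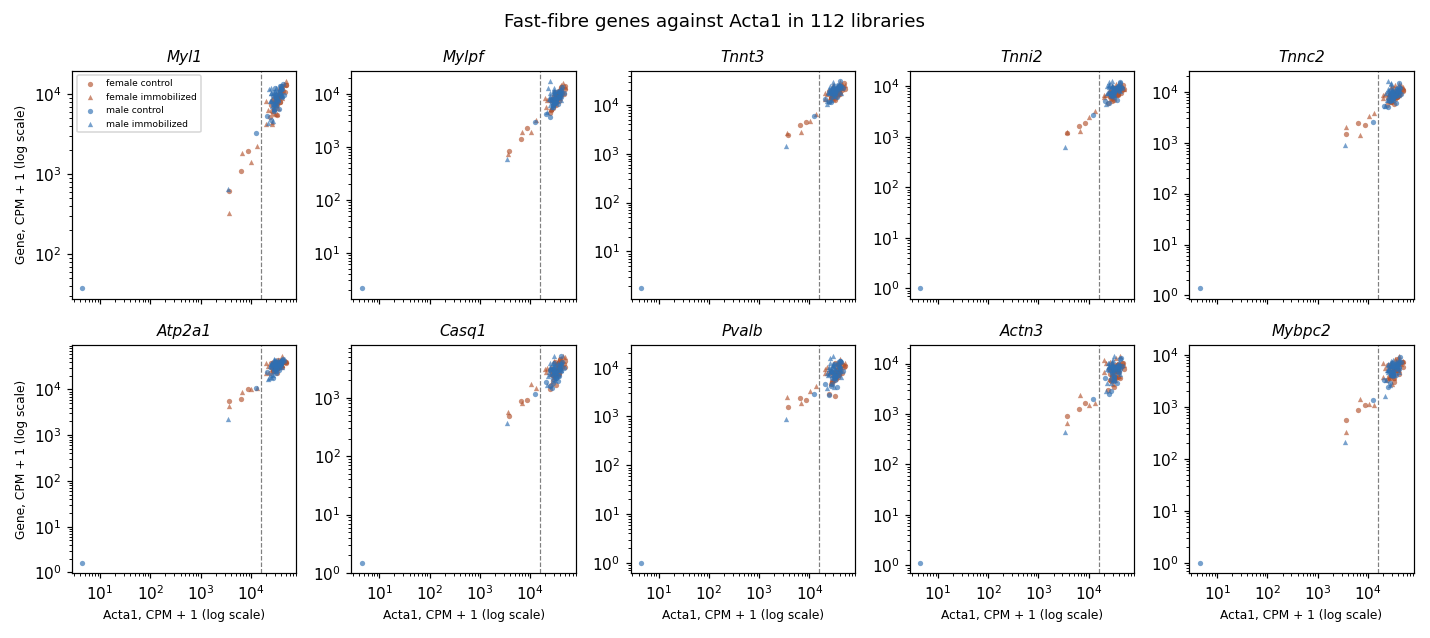
Level of each fast-fibre gene (vertical axes, CPM + 1, log scale) against Acta1 (horizontal axes, CPM + 1, log scale) in 112 libraries, 1 point per library, with the sexes in different colours, control limbs as circles and immobilized limbs as triangles. The dashed line marks 50% of the median Acta1 level, with the control limb of male 52 at the lower left. The 10 libraries to its left are below their partner limbs in all 10 genes. Some lie within the range of the other libraries, such as the immobilized limb of female 41 for Pvalb (4265 CPM).

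Markers of some other cell types were high in the same limbs and those of tendon were low. The summed level of 10 T, B and NK cell markers had a median of 433 CPM (14.5 to 1535) in the 10 low limbs and 1.79 CPM (0.243 to 165) in the other 102, and 8 of the 10 low limbs exceeded the highest of the others. The summed level of 8 adipocyte markers had a median of 3958 CPM (491 to 21160) against 280 CPM (91.3 to 5672), with 3 of 10 above the highest. Macrophage markers had a median of 423 CPM in the low limbs against 86.1, endothelial markers 308 against 230 and fibroblast markers 1388 against 1211. The median was lower in the low limbs for tendon markers, 47.1 CPM against 560, and for Schwann cell markers, 147 against 179. The highest other limb was exceeded by 0 of the 10 low limbs for macrophage, tendon and Schwann cell markers, by 1 for fibroblast and by 2 for endothelial markers. The part of these markers in the levels of the fast-fibre genes was not tested. In bulk tissue fewer fibres and less RNA per fibre cannot be told apart.

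Whether a cast changes the fast program was asked by comparing the limbs within mouse. No fast-fibre gene passed the threshold in either sex. In females 0 of 10 were called, where 4.57% of the 11886 genes tested were (543 genes, 250 higher and 293 lower), and in males 0 of 10, where 2.21% were (263 genes, 130 higher and 133 lower). At an unadjusted p of 0.05 the count was 0 of 10 in both sexes by edgeR, where it was 2899 and 2022 of the 11886 genes, and DESeq2 also called 0 in both. limma voom called 0 of 10 in females and 8 in males, a result given with male 52 further on. The median log2 fold change of the 10 genes was 0.08 in females (-0.15 to 0.29) and 0.25 in males (0.07 to 0.40), beside 0.01 and 0.00 over all genes. Their standard errors, 0.27 to 0.35, were more than the median of 0.13 over all genes in each sex.

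Without the mice that had a low Acta1 limb the estimates stayed small and their errors shrank. Standard errors of the 10 genes were then 0.09 to 0.17 in females and 0.09 to 0.16 in males. By edgeR 0 of 10 genes were called in each sex, and by DESeq2 1 in females and 0 in males, while 17.2% of all 11731 genes tested were called in females and 9.13% in males. The median log2 fold change of the 10 genes was 0.16 in females (-0.05 to 0.33) and 0.17 in males (0.01 to 0.32), beside 0.02 and 0.00 over all genes. At an unadjusted p of 0.05, 2 of 10 passed in each sex, Casq1 and Pvalb, where 3856 of the 11731 genes did in females and 2972 in males. The 95% intervals of all 10 genes then lay between 0.81-fold and 1.59-fold in females and between 0.86-fold and 1.51-fold in males. A larger change than that was outside the interval of every one of them in these mice, whose choice by Acta1 is not independent of the 10 genes. With all mice the intervals lay between 0.60-fold and 1.86-fold in females and between 0.70-fold and 2.02-fold in males.

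**Figure D2:**
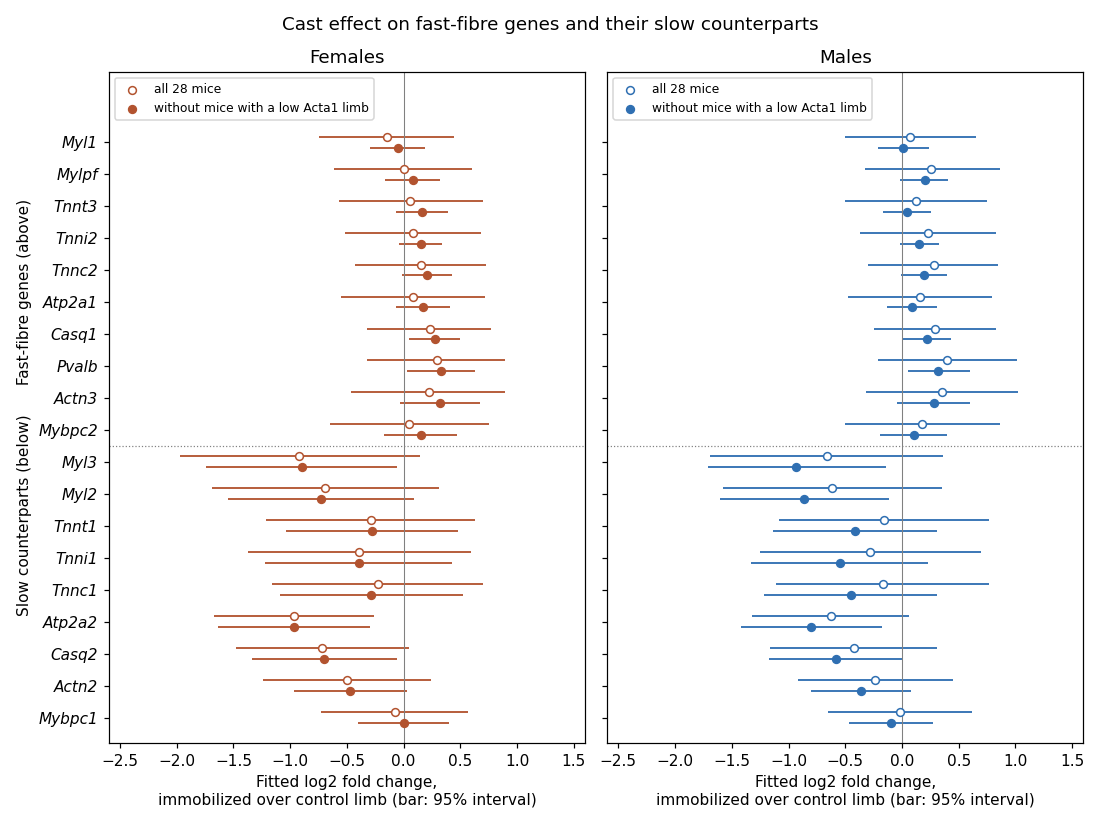
Fitted log2 fold change of the immobilized over the control limb (horizontal axes) with its 95% interval for the 10 fast-fibre genes and 9 slow counterparts, in females and males. Open points are all 28 mice and filled points leave out mice with a low Acta1 limb. Intervals of the fast genes are narrower without those mice, and estimates of the slow genes lie at or below 0.

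The myosin light chains came first. Myl1, the fast essential light chain, ran in the control limbs of the 21 remaining females from 5170 to 12930 CPM with a median of 8982, and in their immobilized limbs from 4310 to 13414 with a median of 8783. In the 25 remaining males the control limbs ran from 4770 to 13410 with a median of 9318 and the immobilized limbs from 4415 to 12151 with a median of 9791. The limbs overlapped almost fully, and 10 of 21 females and 14 of 25 males were higher in the immobilized limb. The log2 fold change of Myl1 was -0.05 ± 0.12 in females (edgeR adjusted p = 0.8) and 0.01 ± 0.11 in males (adjusted p = 0.96), and with all mice -0.15 ± 0.30 and 0.07 ± 0.29. This was the smallest estimate among the 10 genes in each sex without the low Acta1 mice.

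Mylpf encodes the fast regulatory light chain, the light chain that is phosphorylated on activation. Its median was 9145 CPM in control limbs (4405 to 14110) and 8972 in immobilized limbs (5053 to 15663) of the 21 females. In the 25 males it was 8332 (3698 to 13343) and 8968 (4600 to 17314). The ranges overlapped in both sexes, with 11 of 21 females and 18 of 25 males higher in the immobilized limb. The log2 fold change was 0.08 ± 0.12 in females (edgeR adjusted p = 0.67) and 0.20 ± 0.11 in males (adjusted p = 0.25), and with all mice -0.00 ± 0.30 and 0.26 ± 0.30.

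The fast troponin subunits form the calcium switch of the thin filament. Tnnt3, the subunit that binds tropomyosin, had a median of 17397 CPM (12004 to 24462) in control and 19744 (13039 to 29988) in immobilized limbs of the 21 females, and of 20670 (11517 to 30763) and 20762 (10472 to 29381) in the 25 males. Its log2 fold change was 0.16 ± 0.12 in females and 0.04 ± 0.11 in males, with 13 of 21 and 11 of 25 mice higher, and 0.06 ± 0.32 and 0.12 ± 0.31 with all mice. The ranges of the limbs overlapped and neither sex showed a change past the threshold.

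Tnni2, the inhibitory subunit, had a median of 7107 CPM (4728 to 9275) in control and 8217 (5914 to 11569) in immobilized limbs of the 21 females. In the 25 males its median was 8242 (4549 to 12119) and 9328 (4367 to 12554). The log2 fold change was 0.15 ± 0.09 in both sexes, with 12 of 21 females and 17 of 25 males higher, and the standard error was the lowest among the 10 genes. With all mice Tnni2 was at 0.08 ± 0.30 and 0.23 ± 0.30. Tnnc2, the subunit that binds calcium, had a median of 8397 CPM (5383 to 12029) and 9153 (6544 to 14230) in the females and of 8730 (5064 to 14842) and 9994 (5363 to 16170) in the males. Its log2 fold change was 0.21 ± 0.11 (edgeR adjusted p = 0.18, 15 of 21 higher) and 0.19 ± 0.10 (adjusted p = 0.22, 15 of 25 higher), and with all mice 0.15 ± 0.29 and 0.28 ± 0.29. For both subunits the highest and the median limb were higher on the immobilized side in each sex, and the ranges still overlapped.

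Actn3 and Mybpc2 belong to the Z-disc and the thick filament. Actn3, the fast alpha-actinin that cross-links actin at the Z-disc, had a median of 7175 CPM (3057 to 10273) in control and 8701 (3875 to 14452) in immobilized limbs of the 21 females, and of 7579 (2542 to 12881) and 8978 (2803 to 14324) in the 25 males. The log2 fold change was 0.32 ± 0.17 in females (edgeR adjusted p = 0.19) and 0.28 ± 0.16 in males (adjusted p = 0.27), and with all mice 0.22 ± 0.34 and 0.35 ± 0.33. It was higher in 14 of 21 females and 19 of 25 males, and its spread between mice was wide, from -1.41 to 1.62 and from -1.54 to 1.56 on the log2 scale. Mybpc2, the fast myosin binding protein C, had medians of 5235 (2977 to 8367) and 5809 CPM (2817 to 9741) in the females and 5395 (2406 to 9293) and 6114 (1654 to 8384) in the males. Its log2 fold change was 0.15 ± 0.16 and 0.11 ± 0.15, less than its error in each sex, as were the 0.05 ± 0.35 and 0.18 ± 0.34 with all mice.

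The calcium handling genes included the pair with the lowest p-values. Atp2a1, the fast calcium pump SERCA1 that returns calcium to the sarcoplasmic reticulum, had a median of 32935 CPM (22980 to 44781) in control and 37073 (22747 to 55299) in immobilized limbs of the 21 females. In the 25 males the medians were 33772 (18274 to 45285) and 37263 (17040 to 46586). The log2 fold change was 0.17 ± 0.12 and 0.09 ± 0.11, with 14 of 21 and 16 of 25 mice higher, and 0.08 ± 0.32 and 0.16 ± 0.32 with all mice. The medians stood higher on the immobilized side, by less than the spread between mice.

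Casq1 encodes calsequestrin 1, the protein that binds calcium inside the reticulum. Its median was 3036 CPM (1435 to 4582) in control and 3266 (2275 to 5131) in immobilized limbs of the 21 females, and 2802 (1464 to 5300) and 3192 (1681 to 5171) in the 25 males. It was higher in 17 of 21 females and 15 of 25 males, with overlapping ranges. The log2 fold change was 0.28 ± 0.11 in females (edgeR adjusted p = 0.075) and 0.22 ± 0.10 in males (adjusted p = 0.17). DESeq2 on the same females placed Casq1 past the threshold, with an adjusted p of 0.045. With all mice the values were 0.23 ± 0.27 and 0.29 ± 0.27.

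Pvalb encodes parvalbumin, the soluble buffer that speeds relaxation of fast fibres. Control limbs of the 21 females ran from 2615 to 12714 CPM with a median of 7665, and their immobilized limbs from 4952 to 15391 with a median of 9357. In the 25 males the control limbs ran from 2817 to 13896 with a median of 7126 and the immobilized limbs from 3884 to 17765 with a median of 9387. The lowest, the median and the highest limb were each higher on the immobilized side, yet the groups overlapped over most of their range. Pvalb had the highest estimate among the 10 genes in both sexes, 0.33 ± 0.15 in females (edgeR p = 0.031, adjusted p = 0.11, 16 of 21 higher) and 0.32 ± 0.14 in males (p = 0.023, adjusted p = 0.12, 16 of 25 higher). With all mice it was 0.29 ± 0.30 and 0.40 ± 0.31.

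The promoters of the pair with the lowest p-values and of the gene with the smallest change are shown to place these genes on the sequence. They are the 250 bases before the annotated start, 5′ to 3′, from RefSeq on build GRCm38.p6, with capitals on matches to the E-box CANNTG, the core that myogenic factors such as MyoD recognise, or to the MEF2 motif. The windows are chr1:172219896-172220145 on the minus strand for Casq1, chr15:78206401-78206650 on the minus strand for Pvalb and chr1:66945057-66945306 on the minus strand for Myl1.
Casq1: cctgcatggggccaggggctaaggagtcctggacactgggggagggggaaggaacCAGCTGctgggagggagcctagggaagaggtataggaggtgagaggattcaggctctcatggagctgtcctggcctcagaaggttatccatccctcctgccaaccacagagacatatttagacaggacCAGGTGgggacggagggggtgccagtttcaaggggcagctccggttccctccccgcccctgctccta
Pvalb: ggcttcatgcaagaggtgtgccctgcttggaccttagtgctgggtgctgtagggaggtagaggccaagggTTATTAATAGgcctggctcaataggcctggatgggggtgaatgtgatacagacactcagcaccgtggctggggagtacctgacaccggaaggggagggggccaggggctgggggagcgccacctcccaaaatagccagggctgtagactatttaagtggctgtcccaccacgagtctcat
Myl1: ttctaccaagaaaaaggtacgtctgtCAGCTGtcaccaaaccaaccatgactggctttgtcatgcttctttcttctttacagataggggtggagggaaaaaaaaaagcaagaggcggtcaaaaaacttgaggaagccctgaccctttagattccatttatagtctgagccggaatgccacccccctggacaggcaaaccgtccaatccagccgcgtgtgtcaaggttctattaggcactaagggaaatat

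Of the 10 genes, 7 had an entry in the promoter table, and Tnnt3, Tnni2 and Actn3 had none. Both motifs were searched on both strands, and no MEF2 match overlapped an E-box in these windows. Casq1 held 2 E-boxes, whose first bases lay 195 and 67 bases before the start, and Myl1 held 1 at 224. The Pvalb window shown held a MEF2 match at 180 bases before the start and no E-box, while the other Pvalb window in the table held 1 E-box. The 7 genes had 8 windows, of which 7 held an E-box (87.5%), beside 66.2% of all 32851 windows, and 1 a MEF2 match (12.5%), beside 2.92%. These are matches of letters and were not linked to binding or to expression here.

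Slow counterparts of 9 of the genes gave estimates opposite in sign to most of the fast genes, but not in every pair. In females Myl1 was also below 0, at -0.15 ± 0.30 with all mice and -0.05 ± 0.12 without the low Acta1 mice. Mylpf was at -0.00 ± 0.30 in all females, and Mybpc1 at -0.00 ± 0.20 in those without the low Acta1 mice. Of 9 slow genes, 9 had a fitted log2 fold change at or below 0 in both sexes, with a median of -0.50 in females and -0.28 in males, and of -0.47 and -0.55 without the low Acta1 mice. Past the threshold by edgeR was 1 of 9, Atp2a2, which encodes the slow calcium pump SERCA2, in females without those mice (-0.97 ± 0.33, edgeR adjusted p = 0.038, lower in 15 of 21), a call that ended at an Acta1 threshold of 75% of the median (adjusted p = 0.16). Of all genes, 17.2% were called in those females. With all females the edgeR adjusted p of Atp2a2 was 0.088, and in the 25 males it was at -0.80 ± 0.31 (adjusted p = 0.087). DESeq2 called Atp2a2 in all 3 of these sets, with an adjusted p of 0.017 in all females, 0.012 in the 21 and 0.036 in the 25 males. Without the low Acta1 mice the SD of the change between mice was 0.88 (Mybpc1) to 1.89 (Myl2) for the slow genes in females, against 0.38 (Tnni2) to 0.75 (Actn3) for the fast ones. In males it was 0.92 (Actn2) to 2.26 (Tnnc1) against 0.43 (Tnni2) to 0.82 (Actn3).

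The fast to slow ratio was taken within each limb for these 9 pairs, on log2 CPM with a prior count of 2. Its median change over mice was above 0 for 9 of 9 pairs in both sexes, from 0.03 to 1.10 in females and from 0.06 to 0.90 in males. For the remaining mice it ran from 0.26 to 1.76 and from 0.12 to 1.17. The pair with the highest median change in females was then Atp2a1 over Atp2a2, whose log2 ratio had a median of 5.62 in control and 6.70 in immobilized limbs and was higher in 16 of 21 mice. In males it was Myl1 over Myl3, the slow essential light chain, with a median of 4.89 in control and 5.82 in immobilized limbs and a higher ratio in 17 of 25. Mybpc2 over Mybpc1 had the lowest median change in these females, 0.26, with 11 of 21 mice higher. The SD of the change between mice was 1.30 to 2.12 in these females and 1.61 to 2.42 in these males, so the ratio moved down in many mice too. These ratios are a description and had no test.

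**Figure D3:**
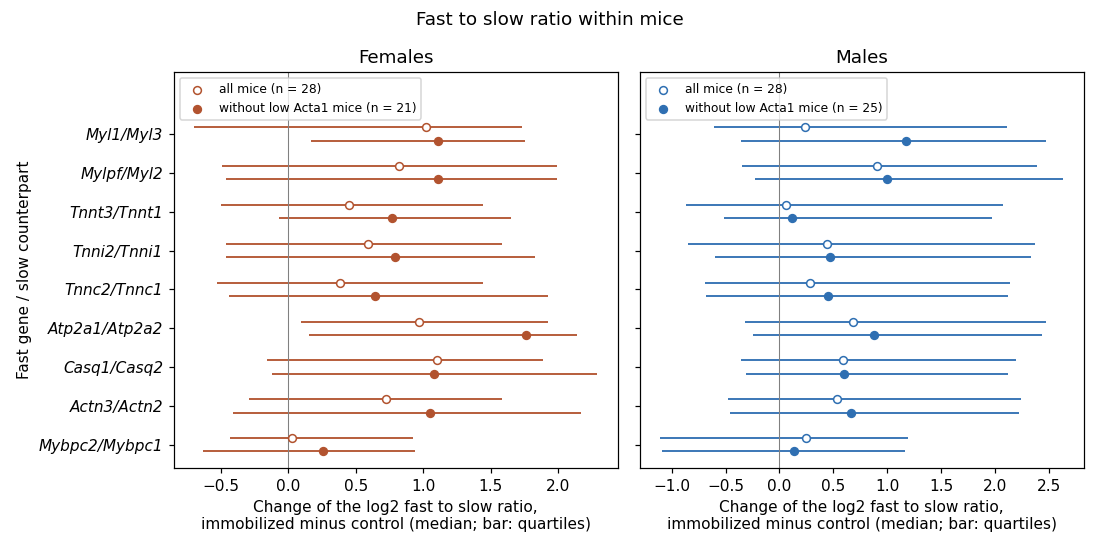
Change of the log2 ratio of each fast gene to its slow counterpart, immobilized minus control limb (horizontal axes), as the median over mice with quartiles as bars. Open points are all mice and filled points leave out mice with a low Acta1 limb. Medians of 9 of 9 pairs lie above 0 in each sex, and most bars cross 0.

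Mice differed in direction, and within a mouse the fast-fibre genes went together. All 10 genes were higher in the immobilized limb in 10 of 28 females and 12 of 28 males, none was higher in 7 and 3, and the others were mixed. Among the remaining mice all 10 were higher in 7 of 21 females and 10 of 25 males, and none in 3 and 2. The Pearson correlation of the changes between pairs of the 10 genes had a median of 0.98 over 56 mice, from 0.88 for Myl1 with Pvalb upward. Over the 46 remaining mice the median was 0.80, from 0.60 for Mylpf with Atp2a1 to 0.97 for Actn3 with Mybpc2. The changes of 1 mouse come from the same 2 libraries and share their depth and composition, so these values are a description.

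**Figure D4:**
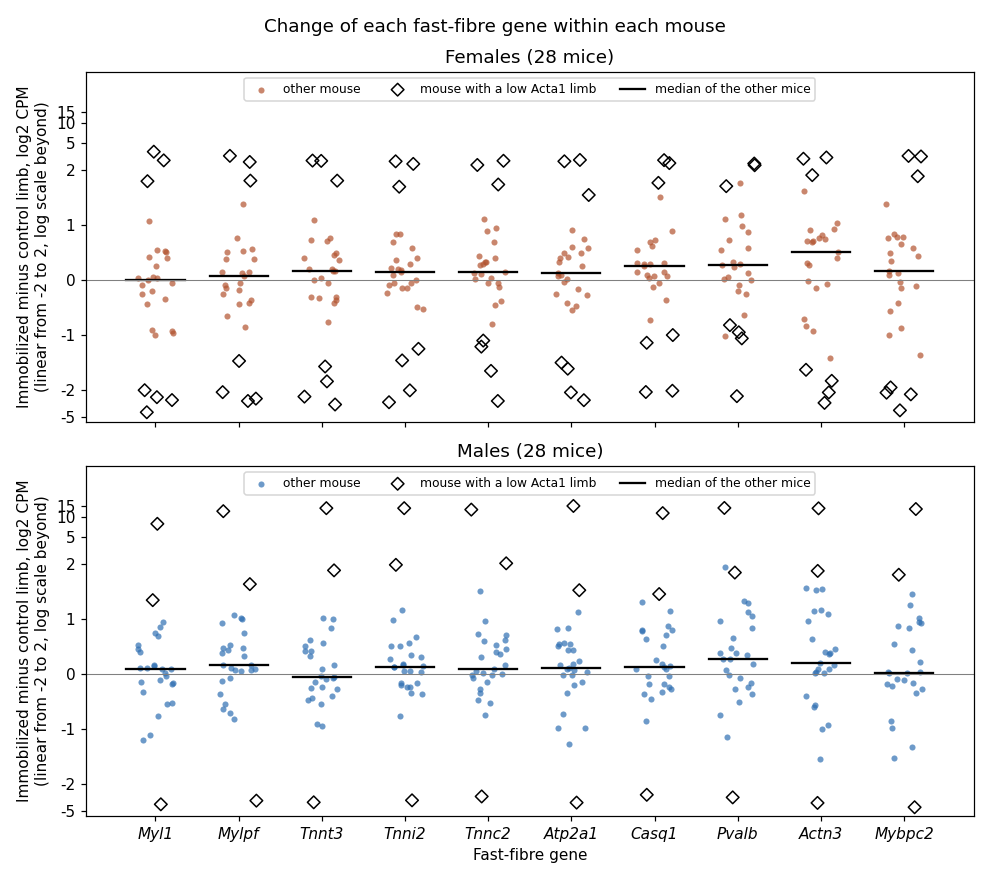
Change of each fast-fibre gene within each mouse, immobilized minus control limb in log2 CPM (vertical axes, linear from -2 to 2 and log scale beyond), 1 point per mouse, females above and males below. Diamonds are mice with a low Acta1 limb and lie outside most others for all 10 genes, and the bar is the median of the other mice. Male 52, whose control limb was nearly devoid of these transcripts, is at the top from 8.02 to 14.94, values that depend on the prior count of 2.

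The genes whose change was most like that of the fast-fibre genes were sought among all genes with an average log2 CPM of at least 4. Over 56 mice they were Ckm, the muscle creatine kinase, with a correlation of 1.00 to the mean standardized change of the 10 genes, then Myoz1 and Trdn at 0.99, and Myh4, Pgam2, Pygm, Acta1 and Eef1a2 at 0.98. Myh4 encodes the fastest myosin heavy chain of the mouse, and Pgam2 and Pygm encode muscle enzymes of glycolysis and glycogen breakdown. Over the 46 remaining mice the list was led by Tpm1, a tropomyosin, at 0.96, with Myoz1 and Ckm at 0.94, and Cib2, Slc37a4, Pgm2, Pygm and Ank1 followed at 0.89 to 0.93. Acta1 stood at 0.65 over those mice. The slow counterparts had correlations of 0.37 to 0.82 over all 56 mice and of -0.58 to -0.36 without the low Acta1 mice, where the median over all genes was -0.03. Slow genes thus moved with the fast ones while the low limbs were included and opposite to them once these were left out.

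The limbs of a mouse were also compared in level. Across mice the Pearson correlation between limbs had a median over the 10 genes of -0.09 in 28 females and -0.01 in 28 males, beside 0.03 and 0.14 over all genes. In the remaining mice it was -0.02 (21 females) and 0.03 (25 males), beside 0.16 and 0.20, and Casq1 in females had the highest value at 0.38. These are descriptions, with no test.

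The sexes were compared next. The difference between males and females in the cast effect was 0.06 to 0.27 on the log2 scale for the 10 genes with all mice, and -0.12 to 0.12 without the low Acta1 mice. By edgeR 0 of 10 genes differed in both sets of mice, where 0% of all genes were called, and at an unadjusted p of 0.05 the count was 194 genes and 352 genes, with 0 of the 10 among them. DESeq2 called 1 gene with all mice and 0 without the low Acta1 mice, none of the 10. Without those mice the 95% intervals of the 10 differences lay between 0.70-fold and 1.35-fold, and with all mice between 0.56-fold and 2.17-fold. With all mice the estimates leaned on male 52, without which the 10 differences ran from -0.05 to 0.15 with a median of 0.01 in place of 0.13. By limma voom they ran from 0.79 to 3.59 with male 52 and from -0.11 to 0.09 without it. Within the ranges of animal number set out further on, they ran from -0.04 to 0.28 (1 to 20), from -0.66 to -0.42 (21 to 40) and from 0.70 to 1.23 (41 to 59) with all mice, and from -0.25 to 0.06, -0.34 to -0.08 and 0.20 to 0.70 without the low Acta1 mice. The sign of the difference thus varied with the mice included, with 0 of 10 genes called in each of these fits.

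Levels of males were then set against those of females within each limb. In control limbs the log2 difference of the 10 genes ran from -0.06 to 0.17, and 0 of 10 were called where 1.73% of 10974 genes were. In immobilized limbs it ran from -0.06 to 0.26, and 0 of 10 were called where 4.33% of 11144 genes were. Without the low Acta1 mice the ranges were -0.11 to 0.16 in control limbs, with a median of 0.03 in place of 0.07, and -0.14 to 0.14 in immobilized limbs, with a median of 0.03 in place of 0.14. limma voom turned the direction in control limbs, with values of -0.36 to 0.02 and a median of -0.27. With all mice the count at an unadjusted p of 0.05 was 0 of 10 in each limb, where it was 1594 of 10974 and 2342 of 11144 genes, and both DESeq2 and limma voom called 0 of 10. Among the other fast-fibre genes only Mybph, a relative of myosin binding protein C, differed, lower in males by -1.40 ± 0.34 in control limbs (edgeR adjusted p = 0.014) and -1.29 ± 0.32 in immobilized limbs (adjusted p = 0.012).

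The animals carry numbers, and the cast effect was also fitted within the numbers 1 to 20, 21 to 40 and 41 to 59, which are not stated to be batches. Without the low Acta1 mice the median log2 fold change of the 10 genes in females was 0.35 in the first range (n = 9), 0.27 in the second (n = 6) and -0.21 in the third (n = 6). In males it was 0.27 (n = 10), 0.09 (n = 9) and 0.15 (n = 6). With all mice the medians were 0.12, 0.30 and -0.14 in females and 0.27, -0.20 and 0.78 in males, where the third range (n = 8, 0.65 to 1.03) holds male 52. Among the females numbered 41 to 59, 9 of 10 genes had an estimate below 0, with Mybpc2 at -0.53 ± 0.26 and Myl1 at -0.51 ± 0.23, and Pvalb at 0.03 ± 0.27 was the exception. Among the females numbered 1 to 20 all 10 estimates were above 0, with Actn3 at 0.65 ± 0.22 (edgeR adjusted p = 0.091) the highest. By edgeR 0 of 10 genes were called in each range in both sexes, and the difference between ranges was not tested.

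**Figure D5:**
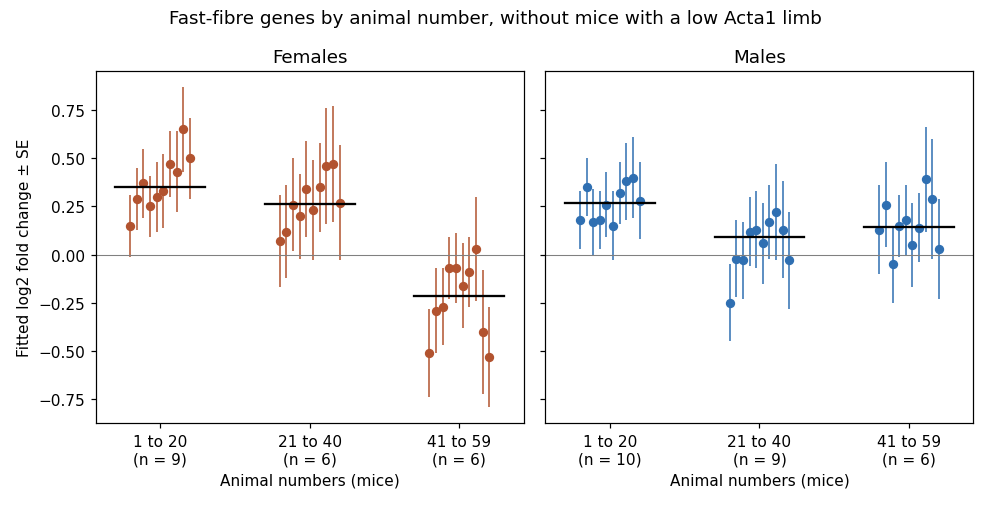
Fitted log2 fold change ± SE of the 10 fast-fibre genes (vertical axes, from left to right Myl1, Mylpf, Tnnt3, Tnni2, Tnnc2, Atp2a1, Casq1, Pvalb, Actn3, Mybpc2) within 3 ranges of animal number, without mice with a low Acta1 limb. The black bar is the median of the genes. In females the medians are 0.35, 0.27 and -0.21, and in males 0.27, 0.09 and 0.15.

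A single library weighed on the males' estimates. With all 28 males the median of the 10 genes was 0.25, and without male 52 it was 0.13, with Myl1 at -0.04. Fitted by limma voom, 8 of 10 genes were called in males with log2 fold changes of up to 3.84, and Myl1 and Mylpf were not. Without male 52 the same fit called 0 of 10 genes, with values from -0.13 to 0.23.

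A further 14 fast-fibre genes, such as the fast myosin heavy chains and glycolytic enzymes, were taken from a list. With all mice edgeR called 0 of 14 in each sex, with 0 at an unadjusted p of 0.05, while DESeq2 called 0 in each and limma voom 0 in females and 2 in males. The median log2 fold change was 0.01 in females and 0.06 in males. After the low Acta1 mice were left out, 0 of 14 were called in females (2 at an unadjusted p of 0.05, 0 by DESeq2) and 1 of 14 in males, beside 17.2% and 9.13% of all genes. That gene was Mylk2, the kinase that phosphorylates the light chain encoded by Mylpf, which fell by 0.49 ± 0.13 in log2 units (adjusted p = 0.011 by edgeR, lower in 20 of 25). In females it was at -0.32 ± 0.14 (adjusted p = 0.092, lower in 18 of 21). Its call in males was lost when the Acta1 threshold was 25% or 75% of the median (adjusted p = 0.069 and 0.059). The fast myosin heavy chains did not share a direction. Myh4 was at 0.26 ± 0.19 in these females (edgeR adjusted p = 0.34) and Myh1 at 0.42 ± 0.24 in these males (adjusted p = 0.27). Myh2 was at -0.62 ± 0.30 in the females (edgeR adjusted p = 0.15, lower in 14 of 21). In the males it was at -0.80 ± 0.28 (adjusted p = 0.057, lower in 18 of 25).

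Among 17 genes of the triad and calcium release, the machinery that feeds calcium to these sarcomeres, edgeR called 1 in females and 0 in males with all mice (2 in males at an unadjusted p of 0.05, and 2 by DESeq2). It was Sln, which encodes sarcolipin, an inhibitor of the calcium pumps, higher in females by 2.04 (adjusted p = 0.025, edgeR). With those mice left out, 2 of 17 rose in each sex by edgeR, beside the 17.2% and 9.13% of all genes called, and DESeq2 called 3 in females and 5 in males. Sln rose by 2.28 ± 0.58 in females (adjusted p = 0.0058) and by 1.72 ± 0.55 in males (adjusted p = 0.038, and 0.056 and 0.19 at Acta1 thresholds of 25% and 75%). The other was Cacng1, a subunit of the voltage sensor, in females (0.45 ± 0.15, adjusted p = 0.03, and 0.088 and 0.092 at those thresholds), and Orai1, the store-operated calcium channel, in males (0.23 ± 0.07, adjusted p = 0.021). The median of the 17 was 0.02 and 0.07, near the 0.02 and 0.00 of all genes.

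Of 15 sarcomere genes shared by fast and slow fibres, edgeR called 0 with all mice in either sex, with 0 at an unadjusted p of 0.05 and 0 by DESeq2, while limma voom called 0 in females and 1 in males. In the remaining mice 1 of 15 was called in each sex, beside 17.2% of all genes in females and 9.13% in males. In females Myot, the Z-disc protein myotilin, fell by 0.48 ± 0.11 (edgeR adjusted p = 0.0032, lower in 17 of 21). In males Lmod3, which builds thin filaments, fell by 0.36 ± 0.10 (adjusted p = 0.018, lower in 20 of 25), and this call was lost without the term for the animal (adjusted p = 0.065) and at an Acta1 threshold of 25% (0.083). Acta1 itself was at -0.11 ± 0.10 in these females and -0.21 ± 0.09 in these males (lower in 19 of 25). These mice were kept by their Acta1 level, so the values of Acta1 among them are not independent of that choice. With all mice Acta1 was at -0.15 ± 0.30 in females and -0.14 ± 0.29 in males (edgeR adjusted p = 0.79 and 0.86). The sign was opposite to that of most of the 10 fast genes, and the errors with all mice exceeded the estimates.

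Regulators of fibre type formed the last list. Of 17 tested, 2 fell in females with all mice by edgeR, Ppargc1a and Esrrg, calls that were lost with no filter on low counts (adjusted p = 0.068 and 0.067). In males 0 were called (2 at an unadjusted p of 0.05, 1 by DESeq2). Of all genes tested, 4.57% were called in females and 2.21% in males. In the mice without a low Acta1 limb 4 of 17 fell in females, and 2 of 17 fell in males. There 17.2% and 9.13% of all genes were called in either direction, with 1067 and 575 of the 11731 genes lower. Ppargc1a, the coactivator that promotes slow and oxidative genes, fell by 0.90 ± 0.17 in females (edgeR adjusted p = 0.0005, lower in 19 of 21) and was at -0.35 ± 0.15 in males (adjusted p = 0.13). Esrrg, a nuclear receptor of oxidative fibres, fell by 1.14 ± 0.25 in females (adjusted p = 0.0019) and by 0.67 ± 0.22 in males (adjusted p = 0.046, and 0.12 at an Acta1 threshold of 25%). Vgll2, a cofactor of transcription in muscle, fell by 0.66 ± 0.21 and 0.63 ± 0.19 (adjusted p = 0.026 and 0.032), which ended at a threshold of 75% in females (0.16) and of 25% in males (0.12). Six4, a homeobox factor of the fast program, fell in females by 0.39 ± 0.13 (adjusted p = 0.028, and 0.097 at a threshold of 75%).

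Without the low Acta1 mice edgeR called 7 of 8 macrophage markers higher in the immobilized limbs of each sex, beside 17.2% and 9.13% of all genes called. With all mice it called 4 of 8 in females and 0 of 8 in males, beside 4.57% and 2.21%. Their summed level was higher in the immobilized limb in 15 of 21 females and 20 of 25 males. Other cell types varied, with Schwann cell markers higher in 16 of 21 and 19 of 25, and adipocyte markers in 13 of 21 and 9 of 25. The part of these markers in these results was not tested. Within the ranges of animal number, most of the calls in these lists were lost, where 6 to 10 mice of a sex remained.

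Mitochondrial genome transcripts had a median share of 16.3% of counts in control limbs of females and 11.9% in their immobilized limbs, and of 17.7% and 13.8% in males. With library sizes computed without these transcripts and without the 10 genes, the median log2 fold change of the 10 genes was 0.09 in females and 0.25 in males, beside 0.08 and 0.25 with them. The larger share of the 10 genes among all counts in immobilized limbs, 11.5% against 9.92% in females and 11.6% against 10.1% in males, is a share of the whole library and not the fitted change.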

How the data were processed

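RNA was extracted with the RNeasy Fibrous Tissue Mini Kit and sequenced as stranded total RNA after ribosomal RNA depletion, per the labels' protocols. The deposited tables, 1 per sex, hold raw counts per gene symbol as the authors made them. Which aligner, counter and genome build were used is not given in the sources used here. Groups came from the sample labels, and the animal number pairs the limbs of a mouse. As a check, deviations from the group means had a median correlation of 0.364 for the limbs of 1 animal and 0.00125 for limbs of different animals, and 45 of 56 animals exceeded 0.1 (lowest -0.435).

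Genes were kept by edgeR's filter, scaled by TMM and tested with edgeR 4.0.16 in R 4.3.3 by quasi-likelihood, with a term per animal and 1 cast effect per sex, and without an animal term between the sexes. P-values were adjusted by Benjamini-Hochberg. The SE is the log2 fold change over the root of its F. Changes within mouse used log2 CPM with a prior count of 2. The alternatives were DESeq2 1.42.0, limma 3.58.1 voom, other size factors and filters, no animal term, each sex alone, other Acta1 thresholds, ranges of animal number, and fits without male 52 or without males 15 and 16. On data simulated for all mice the fit found 62% of the 1.5-fold changes and 88% of the 2-fold ones in females, and 65% and 90% in males. Genes were drawn independently, and each had 1 mean level for all mice, with no low limbs. The changed genes were picked at random. The 10 fast-fibre genes had standard errors of 0.27 to 0.35 with all mice, against a median of 0.13, so these shares do not describe them.

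The genes named are the 10 fast-fibre genes, their 9 slow counterparts, Acta1, up to 4 genes of lowest p per list and sex, and the 8 genes most like the 10 in change. A gene that this rule names is not reported here. The 10 genes, the lists and the tests were chosen with earlier results of these data known. Reads carried no molecular identifiers, so amplification copies were counted with the rest.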

Additional observations from a re-analysis of the deposited data

How the results depend on the processing

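No fast-fibre gene was called by edgeR under any size factor, filter, threshold or range of animal numbers tried. DESeq2 called 1 (Casq1) in females without the low Acta1 mice, and limma voom 8 in all males. Where the sign of a cast effect changed it lay near 0 or came from few mice, and the cause was not tested. Between the sexes in control limbs, voom turned the median of the 10 genes from 0.07 to -0.27 with all mice. In females, Mylpf was 0.01 with median-of-ratios size factors, 0.00 with library sizes free of mitochondrial transcripts and the 10 genes, 0.01 by DESeq2, 0.02 without the replicate block, 0.01 with each sex alone, 0.08 without low Acta1 mice and 0.06 in numbers 1 to 20, and Mybpc2 was -0.05 by voom. By voom without male 52, Mybpc2 was -0.02 in females, and in males Myl1 was -0.13, Tnnt3 -0.06, Atp2a1 -0.05 and Mybpc2 -0.08, while edgeR without male 52 gave Myl1 -0.04. With Acta1 thresholds of 25% and 75%, Mylpf was -0.01 and Myl1 0.02 in females.

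Among numbers 21 to 40, females had Myl1 at 0.14 and Mylpf at 0.18, and Myl1 at 0.07 without the low Acta1 mice (0.15 in numbers 1 to 20). Males there had Myl1 at -0.53, Mylpf -0.29, Tnnt3 -0.31, Tnni2 -0.16, Tnnc2 -0.13, Atp2a1 -0.23, Casq1 -0.09, Pvalb -0.05, Actn3 -0.16 and Mybpc2 -0.35, and without the low Acta1 mice Myl1 -0.25 and Mylpf, Tnnt3 and Mybpc2 -0.02, -0.03 and -0.03. Among numbers 41 to 59, females had Tnnt3 at -0.16, Atp2a1 -0.12, Actn3 -0.27 and Mybpc2 -0.43, and without the low Acta1 mice Mylpf -0.29, Tnnt3 -0.27, Tnni2 -0.07, Tnnc2 -0.07, Atp2a1 -0.16, Casq1 -0.09, Actn3 -0.40 and Mybpc2 -0.53, while males without them had Tnnt3 at -0.05 and Orai1 at -0.02.

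Counts of all genes called moved more. In females 543 became 145 with no filter, 1145 by DESeq2, 84 with that sex alone, 2017 without low Acta1 mice, 845 by voom without male 52, and 0 and 0 in numbers 21 to 40 and 41 to 59. Their 2017 became 1122 at the 75% threshold and 424, 0 and 440 in the ranges of numbers. In males 263 became 109 with no filter, 578 by DESeq2, 454 by voom, 439 by voom without male 52, 589 without the replicate block, 582 with that sex alone, 1071 without low Acta1 mice, and 6, 0 and 1 in the ranges. Their 1071 became 588 at the 25% threshold and 39, 0 and 1 in the ranges. The difference between the sexes had 1 gene by DESeq2 and 1 without the replicate block, and without low Acta1 mice 1 without the block. Between the sexes, 190 genes in control limbs became 836 with no filter, 346 at a mean of 1 CPM, 120 by voom and 334 without low Acta1 mice, and 483 in immobilized limbs became 1743, 1067, 163 and 197. The median correlation between the 10 genes fell to 0.80 without the low Acta1 mice. The Acta1 thresholds of 25% and 75%, the other alternatives among the mice without a low Acta1 limb and the fits without male 52 were chosen after seeing the data. Depth limits the statement on the 3 genes at 0 counts in the control limb of male 52.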
